A study of Mus musculus with 6 samples.

Results

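DNA repair and damage checkpoint genes were measured in the mouse T-cell lymphoma line EL4, given RGFP966 or vehicle. The 46 genes were chosen by name, for homologous recombination, the Fanconi pathway, mismatch, base and nucleotide excision repair and the checkpoint kinases. Their selection rule holds no measured value, but the list was drawn up with earlier results of these data known. A gene symbol in the count table matched 45 of them, out of 51912 gene IDs, and all 45 had enough counts to be among the 13484 genes tested. The listed spelling Claspn matched no symbol. The table holds Clspn, the usual mouse symbol for claspin, and its values are given with the checkpoint kinases without being counted.

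The RGFP966 group was 3 libraries of wild-type EL4 cells kept for 24 h with 10 µM RGFP966, which inhibits HDAC3, a histone deacetylase. The vehicle group was 3 libraries of the same line kept for the same time with vehicle, whose composition the labels do not give. Expression was measured by RNA sequencing. Whether each library had its own culture is not in the labels, so p-values measure only the spread between these libraries.

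Cells repair broken, mismatched or chemically altered DNA through separate routes. Double-strand breaks are sensed by the MRE11-RAD50-NBS1 complex and the kinase ATM, stretches of single-stranded DNA by ATR with its partner ATRIP, and both kinases signal through CHK1, CHK2 and p53 to halt the cell cycle. Homologous recombination copies the lost sequence from the sister chromatid, the Fanconi pathway unhooks crosslinks, mismatch repair corrects replication errors, and the excision routes remove damaged bases or bulky adducts. Several of these genes are transcribed mostly in S phase under E2F factors.

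Library totals ran from 12935443 to 14768540 counts with RGFP966 and from 15380331 to 16451017 with vehicle (exact permutation test, two-sided, p = 0.1, which is the minimum for n = 3 against 3). The 45 genes took 0.454% ± 0.00309 (SD, n = 3) of the counts in RGFP966 libraries and 0.445% ± 0.00632 in vehicle libraries (same exact test, p = 0.1). Levels are in CPM, the count of a gene scaled to a common library total. All 10 T cell markers were detected in both groups, and they summed to 2147 to 2215 CPM in RGFP966 libraries and 2165 to 2193 CPM in vehicle libraries. By the test described next, 2 of the 10, Cd2 and Cd5, were higher with RGFP966 and 3, Lat, Cd247 and Zap70, were lower, with log2 fold changes between -0.23 and 0.56. Their part in the results for repair genes was not tested. The extraction text in the labels speaks of retinas. The 14 retina markers summed to 5.12 to 5.29 CPM in RGFP966 libraries and 4.78 to 5.24 CPM in vehicle libraries, with 4 of them at 0 everywhere, among them Crx and Gnat1.

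Called genes are those with an adjusted p under 0.05 in edgeR's quasi-likelihood test over all genes tested. Of the 45 genes 8 were called higher and 4 lower with RGFP966, which is 26.7%, against 23.3% of all genes tested. The 8 higher genes make 17.8%, against 11.4% of all genes called higher, and the 4 lower genes make 8.89%, against 11.9% of all genes called lower. The median log2 fold change of the 45 genes was -0.02, against -0.00 for all genes tested, and their median absolute change was 0.09, against 0.13. In 18 of the 45 genes the 3 RGFP966 libraries lay wholly above or below the 3 vehicle libraries, against 36.3% of all genes tested. The share of these genes that changed was near that of the whole table. The routes described below hold 3 to 10 tested genes each, so the calls in a route rest on few genes. They are to be read beside the 23.3% of all genes.

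The balance of rises and falls moved with the scaling, and calls in both directions were lost without 1 library. It was 8 to 4 as reported, 9 to 2 with upper-quartile factors, and 7 to 7 with offsets for GC content and length. For all genes tested it was 1543 to 1602 as reported, and 1838 to 1270 with upper-quartile factors. Without RGFP966 library 3 it was 5 to 2 in these genes. Counts over all genes are not given here for that fit or for the offsets. Whether those shifts and losses are particular to these genes was not tested.

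The changes were small. Among the 8 genes that rose the difference lay between 9.63% and 32.8%, and among the 4 that fell between -8.97% and -28.0%. Of the 33 genes not called, 32 had an approximate 95% interval within 1.5-fold of no change in either direction. The exception was Atrip. In bulk RNA, a change in the share of cells that make a transcript and a change in the amount per cell cannot be told apart. S-phase genes and mitosis genes also moved: of 28 tested S-phase and replication genes 3 were higher and 10 lower (median log2 fold change -0.10), and of 22 mitosis genes 1 was higher and 17 lower (median -0.20). Their part in the results for repair genes was not tested.

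**Figure D1:**
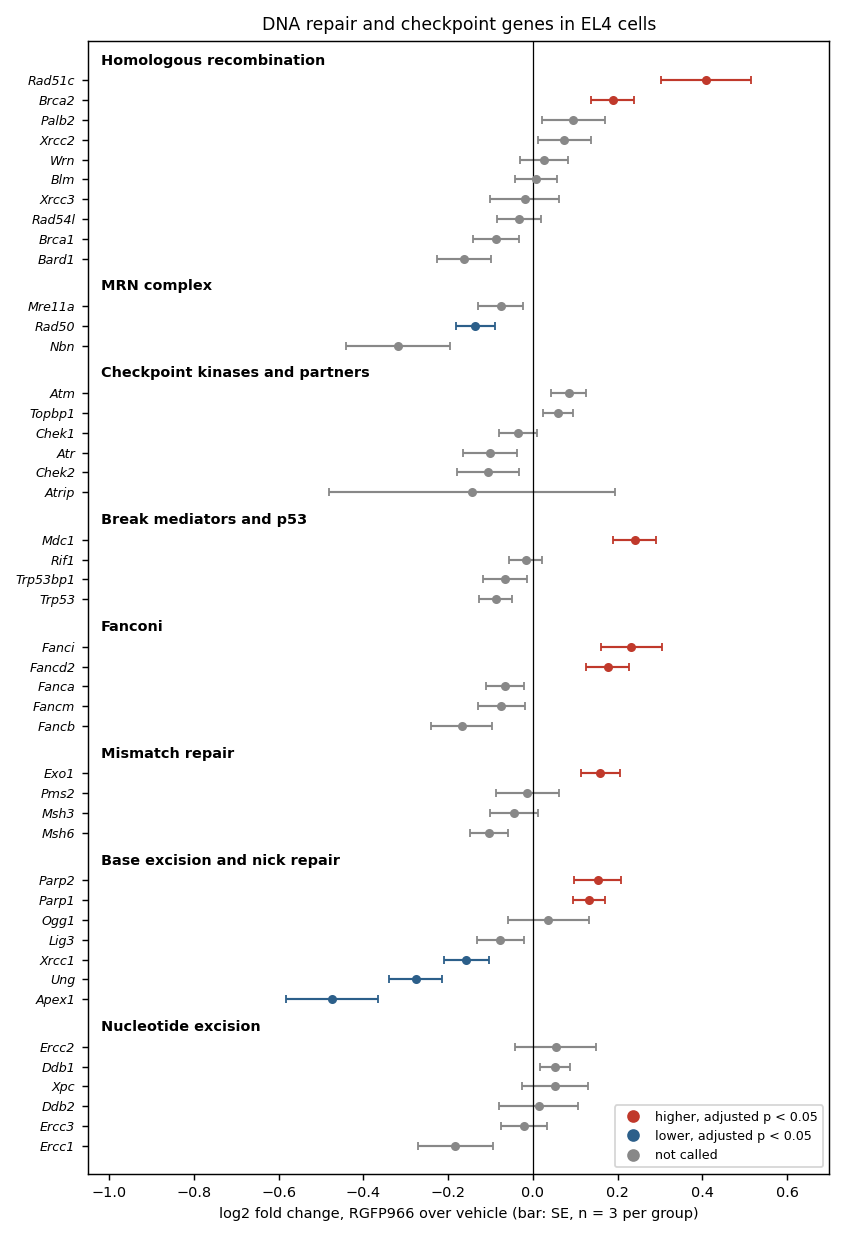
Log2 fold change of RGFP966 over vehicle for the 45 measured genes, grouped by repair route, with bars for the SE (n = 3 libraries per group) and colour for the call at an adjusted p under 0.05. Calls in both directions occur only in the base excision group, from Parp2 at 0.15 to Apex1 at -0.47. The checkpoint kinase and nucleotide excision groups hold none among 6 tested genes each, with 23.3% called among all genes.

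Promoter sequences are shown for 3 genes that rose and share an E2F motif, and for the 2 genes with the smallest adjusted p among those that fell. Rad51c has 2 windows, and the one with the motif is printed. The windows run from 250 bases before the transcription start to 50 after it, from RefSeq on GRCm38.p6, and 35 of the 45 genes had one. Xrcc2, Wrn, Rad50, Nbn, Rif1, Fancd2, Exo1, Xpc, Ercc3 and Ddb2 had none. Both strands were searched for the E2F motifs TTTCCCGC and TTTGGCGC, the cell-cycle homology region motif TTTGAA, the CCAAT box CCAAT and the NRF1 core CGCATGCG. None of these motifs overlapped another in the windows printed. Capitals mark the matches.

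Mdc1, which rose (chr17:35841248-35841547, plus strand): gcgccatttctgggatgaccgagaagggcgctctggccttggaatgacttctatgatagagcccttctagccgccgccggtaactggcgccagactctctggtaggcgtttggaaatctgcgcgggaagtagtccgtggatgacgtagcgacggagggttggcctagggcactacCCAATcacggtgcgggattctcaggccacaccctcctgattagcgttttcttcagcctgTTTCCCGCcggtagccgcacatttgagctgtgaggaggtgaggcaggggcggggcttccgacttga
Rad51c, which rose (chr11:87404905-87405204, minus strand): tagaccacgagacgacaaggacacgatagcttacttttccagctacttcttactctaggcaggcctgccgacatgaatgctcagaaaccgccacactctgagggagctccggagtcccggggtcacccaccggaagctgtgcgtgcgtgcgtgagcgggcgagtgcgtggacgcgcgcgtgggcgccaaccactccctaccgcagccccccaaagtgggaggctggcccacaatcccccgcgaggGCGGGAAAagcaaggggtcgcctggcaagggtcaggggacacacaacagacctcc
Brca2, which rose (chr5:150522371-150522670, plus strand): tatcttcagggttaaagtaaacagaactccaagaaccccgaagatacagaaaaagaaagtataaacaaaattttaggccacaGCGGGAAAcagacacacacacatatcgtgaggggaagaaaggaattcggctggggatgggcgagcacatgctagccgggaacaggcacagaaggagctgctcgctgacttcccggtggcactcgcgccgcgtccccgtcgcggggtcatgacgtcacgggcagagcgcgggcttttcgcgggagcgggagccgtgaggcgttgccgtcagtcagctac
Apex1, which fell (chr14:50924699-50924998, plus strand): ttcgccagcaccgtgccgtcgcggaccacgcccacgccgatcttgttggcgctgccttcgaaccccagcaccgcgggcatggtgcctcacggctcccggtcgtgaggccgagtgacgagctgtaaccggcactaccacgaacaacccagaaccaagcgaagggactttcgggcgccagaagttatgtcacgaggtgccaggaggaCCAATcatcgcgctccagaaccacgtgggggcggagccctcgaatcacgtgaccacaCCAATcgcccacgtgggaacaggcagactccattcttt
Ung, which fell (chr5:114130185-114130484, plus strand): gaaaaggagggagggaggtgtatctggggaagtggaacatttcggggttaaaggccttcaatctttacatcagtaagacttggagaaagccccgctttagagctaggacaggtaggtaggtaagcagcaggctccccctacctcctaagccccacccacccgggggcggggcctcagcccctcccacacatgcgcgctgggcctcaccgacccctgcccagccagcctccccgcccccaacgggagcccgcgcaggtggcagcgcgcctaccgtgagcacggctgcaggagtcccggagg

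The motif TTTCCCGC stood in the Mdc1 window from 16 bases before the start, and on the opposite strand in the windows of Rad51c, from 5 bases before the start, and Brca2, from 168 bases before it. It was found in 6 of the 35 genes with a window (17.1%). By call, it stood in 3 of the 6 that rose, in 0 of the 3 that fell and in 3 of the 26 not called, Bard1, Chek2 and Msh6. Across all 27025 genes with a window 1.24% held it, and across the 9356 of them that were tested here 2.46% did. TTTGGCGC was found in Msh3 alone (2.86% of the 35), against 0.585% of all genes and 1.18% of tested genes. TTTGAA was found in Bard1 alone, against 20.2% of all and 14.7% of tested genes, and the NRF1 core in Fancm alone, against 2.07% of all and 4.56% of tested genes. CCAAT was found in 20 of the 35 genes (57.1%), against 41.1% of all and 43.3% of tested genes. Apex1 has 2 copies of it, and Ung has no match to any of the motifs. A match describes the letters of the window and was not tested as a binding site.

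Homologous recombination genes held 2 rises among 10 tested and 0 falls. Rad51c encodes a factor needed for strand exchange and for the late steps of recombination. It measured 16.3, 18.9 and 16.3 CPM in the RGFP966 libraries, against 12.7, 14.3 and 11.7 CPM in the vehicle libraries. Its lowest RGFP966 library lay above its highest vehicle library. Its log2 fold change of 0.41 ± 0.11 (SE, adjusted p = 0.00312) was the largest rise of the 45 genes. Brca2, whose product prepares resected DNA for strand exchange, measured 87.7, 89.6 and 82.2 CPM with RGFP966 and 79.95, 74.1 and 73.6 CPM with vehicle. The groups did not overlap, and the log2 fold change was 0.19 ± 0.05 (adjusted p = 0.00425). Both calls held in all 17 alternatives.

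The partners of these proteins did not pass the test. Brca1, the ubiquitin ligase subunit that acts upstream of BRCA2, measured 63.4, 61.0 and 65.1 CPM with RGFP966 and 70.0, 63.0 and 68.6 CPM with vehicle (log2 fold change -0.09 ± 0.05, adjusted p = 0.272). Its groups overlapped. Bard1, the obligate partner of BRCA1, measured 41.1, 41.0 and 43.2 CPM with RGFP966 and 50.02, 45.8 and 44.6 CPM with vehicle. Its groups did not overlap, yet its log2 fold change of -0.16 ± 0.06 missed the threshold (adjusted p = 0.0569), in a range from 0.0221 to 0.312 over the alternatives. Palb2, which bridges BRCA1 and BRCA2, averaged 33.1 ± 2.54 CPM with RGFP966 and 31.1 ± 1.61 CPM with vehicle (SD, n = 3 each). The recombination mediator genes Xrcc2 and Xrcc3 had log2 fold changes of 0.07 and -0.02, and Rad54l, which encodes a DNA translocase, one of -0.03. The RecQ helicase genes Blm and Wrn had 0.01 and 0.03, with adjusted p of 0.942 and 0.787.

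Genes of the MRE11-RAD50-NBS1 complex, which tethers and trims broken ends, all had negative values, and 1 of the 3 was called. Rad50 measured 125, 131 and 115 CPM with RGFP966 and 139, 131 and 137 CPM with vehicle. Its RGFP966 libraries lay below its vehicle libraries, by a narrow margin between library 2 of each group. Its log2 fold change was -0.14 ± 0.05 (adjusted p = 0.0239). The call was lost without RGFP966 library 1 or 3 (adjusted p = 0.0524 and 0.317) and without vehicle library 1 or 3 (0.117 and 0.0811). Upper-quartile factors and the DESeq2 Wald test ended it too, and over all alternatives the adjusted p ran between 0.00254 and 0.317. Nbn, which encodes the NBS1 subunit, measured 8.45, 9.62 and 9.65 CPM with RGFP966 and 12.6, 10.8 and 11.2 CPM with vehicle. Its groups did not overlap, and its log2 fold change of -0.32 ± 0.12 did not pass (adjusted p = 0.0526, between 0.0333 and 0.222 over the alternatives). Mre11a, the gene of the nuclease, had -0.08 ± 0.05 (adjusted p = 0.319).

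The checkpoint kinase genes and their partners held 0 calls among 6 tested by edgeR's quasi-likelihood test, with 1 unadjusted p under 0.05, and 0 in the DESeq2 Wald test. Of 23 other checkpoint genes tested, 30.4% were called by edgeR, against 23.3% of all genes. Atm measured 174, 169.8 and 172 CPM with RGFP966 and 159.9, 156 and 171 CPM with vehicle (log2 fold change 0.08 ± 0.04, adjusted p = 0.146, in a range from 0.0357 to 0.402). Vehicle library 3 overlapped the RGFP966 libraries, and without it Atm was called. Atr averaged 41.7 ± 1.98 CPM with RGFP966 and 44.7 ± 1.85 CPM with vehicle. Atrip stayed near the detection limit, at 0.735, 1.94 and 1.47 CPM with RGFP966 and 1.96, 1.53 and 1.09 CPM with vehicle, so only a large difference could have been seen. Exons of Trex1, on the same strand, overlap 16.04% of the Atrip exons.

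The effector kinase gene Chek1 measured 143, 145 and 150.5 CPM with RGFP966 and 139, 159.6 and 150.2 CPM with vehicle, a log2 fold change of -0.04 ± 0.04 (adjusted p = 0.622). Chek2, the kinase gene downstream of ATM, had -0.11 ± 0.07 (adjusted p = 0.319). Topbp1, which encodes the activator of ATR, measured 587, 577 and 583 CPM with RGFP966 and 563, 559 and 555 CPM with vehicle. Its groups did not overlap, and its change of 0.06 ± 0.04 on the log2 scale was not called (adjusted p = 0.245). Clspn, whose product claspin links ATR to CHK1, measured 163, 159.9 and 151 CPM with RGFP966 and 171, 166 and 175 CPM with vehicle. Its log2 fold change was -0.11 ± 0.04 (adjusted p = 0.0488), a call that held in 7 of 17 alternatives, with adjusted p from 0.00782 to 0.327.

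Mdc1 encodes the large scaffold that binds phosphorylated histone H2AX beside a break and recruits further factors. It measured 97.8, 103 and 101 CPM with RGFP966 and 93.0, 80.3 and 82.2 CPM with vehicle. The groups did not overlap, with vehicle library 1 nearest the RGFP966 libraries, and the log2 fold change was 0.24 ± 0.05 (adjusted p = 0.000273). This was the smallest adjusted p of the 45 genes, and the call held in all 17 alternatives. The factors that act after MDC1 in the choice of repair route were not called. Trp53bp1, the gene of 53BP1, had -0.07 ± 0.05 on the log2 scale (adjusted p = 0.399), with 15.0% of its exons overlapped by Tubgcp4. Rif1, the effector of 53BP1, had -0.02 ± 0.04 (adjusted p = 0.799).

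Trp53, the gene of the transcription factor p53, measured 248.4, 248.0 and 237 CPM with RGFP966 and 267, 261 and 251.5 CPM with vehicle. All RGFP966 libraries lay below all vehicle libraries, and the log2 fold change of -0.09 ± 0.04 was not called (adjusted p = 0.0954, between 0.0674 and 0.406 over the alternatives). Among 21 tested target genes of p53, 4 were higher and 2 lower, or 28.6%, against 23.3% of all genes tested. Cdkn1a, which encodes the CDK inhibitor p21, rose to 72.8 ± 1.24 CPM with RGFP966, against 55.3 ± 2.71 CPM with vehicle (SD, n = 3 each; log2 fold change 0.40 ± 0.05, adjusted p = 1.20e-07). Trp53inp1, a stress-induced p53 cofactor gene, rose by 0.31 on the log2 scale (adjusted p = 3.58e-05) and the antiproliferative gene Btg2 by 0.26 (adjusted p = 0.000500). Plk3, which encodes a polo-like kinase, fell by 0.31 (adjusted p = 0.00192). Rrm2b, a ribonucleotide reductase subunit gene, fell by 0.18 (adjusted p = 0.0292), in a range up to 0.123. Mdm2, the gene of the ligase that degrades p53, averaged 122 ± 1.31 CPM with RGFP966 and 129.8 ± 3.23 CPM with vehicle, and its log2 fold change of -0.09 ± 0.04 was not called (adjusted p = 0.1503).

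**Figure D2:**
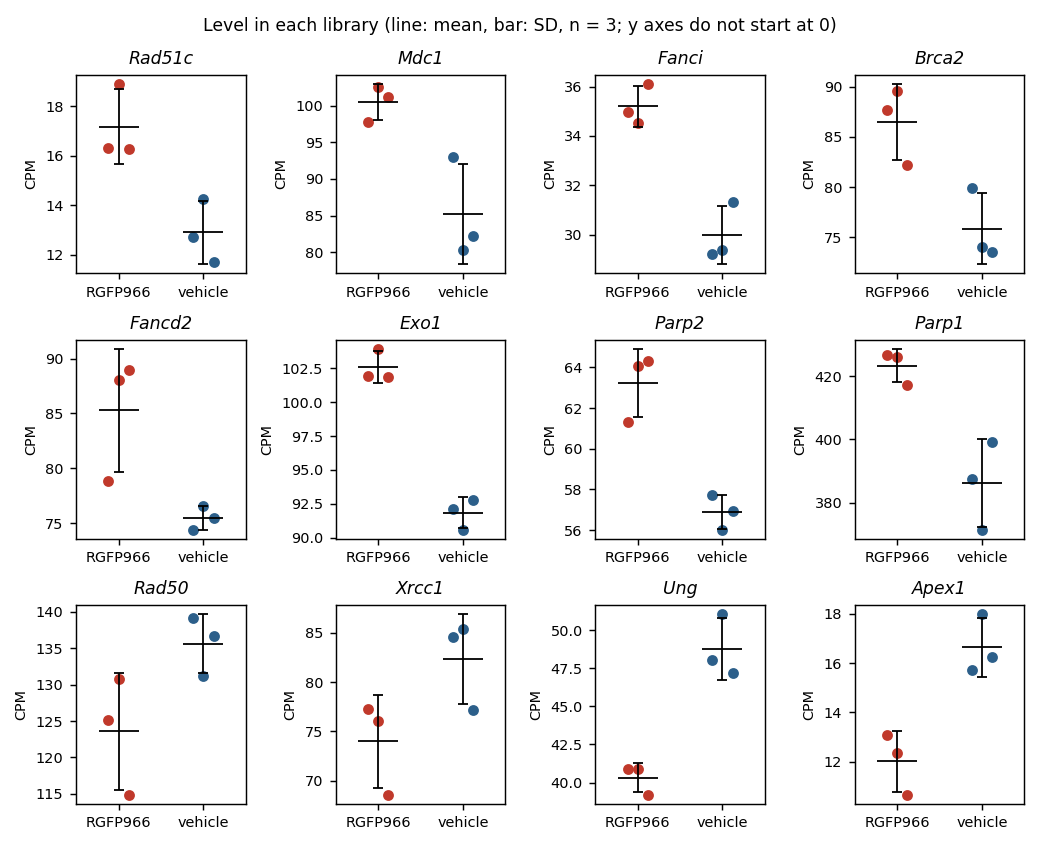
Level in each library, in CPM, for the 12 genes called, with the mean as a line and the SD as a bar (n = 3 per group). In Xrcc1 the RGFP966 library of 77.3 CPM overlaps the vehicle library of 77.1 CPM, and in the other 11 genes the groups do not overlap.

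Fanconi genes held 2 rises among 5 tested and 0 falls. The 2 were Fancd2 and Fanci, whose products form the clamp that is ubiquitinated at a crosslink. Fancd2 measured 78.9, 88.0 and 89.0 CPM with RGFP966 and 74.4, 76.5 and 75.5 CPM with vehicle, and its log2 fold change was 0.18 ± 0.05 (adjusted p = 0.00788). Fanci measured 35.0, 34.5 and 36.1 CPM with RGFP966 and 29.2, 29.4 and 31.3 CPM with vehicle, and its log2 fold change was 0.23 ± 0.07 (adjusted p = 0.0124). In both genes the groups did not overlap. Without RGFP966 library 3 both calls were lost, with an adjusted p of 0.0659 for Fancd2 and 0.0546 for Fanci, and no other single library ended either. The Fanci call was also lost in the DESeq2 Wald test (0.0611). Over the alternatives the adjusted p ran between 0.00269 and 0.0659 for Fancd2 and between 0.00631 and 0.0611 for Fanci. Exons of Polg, on the opposite strand, overlap 15.95% of the Fanci exons. Polg itself was lower, at 59.3 ± 2.47 CPM with RGFP966 and 67.7 ± 3.70 CPM with vehicle (log2 fold change -0.19, adjusted p = 0.00890, in a range up to 0.0818).

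Genes of the Fanconi core complex, which places the ubiquitin, were not called. Fanca measured 117, 116 and 118 CPM with RGFP966 and 123, 118 and 127 CPM with vehicle, with groups just apart and a log2 fold change of -0.07 ± 0.04 (adjusted p = 0.314). Fancb, an X-linked subunit gene, had -0.17 ± 0.07 (adjusted p = 0.0855, in a range from 0.0319 to 0.331), and Fancm, the translocase gene, had -0.07 ± 0.06 (adjusted p = 0.377).

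In mismatch repair, 1 of 4 genes rose. Exo1 encodes the exonuclease that removes the strand with the error and also trims broken ends. It measured 102, 104 and 102 CPM with RGFP966 and 92.1, 90.6 and 92.8 CPM with vehicle. Its libraries agreed closely within each group, the groups lay apart, and the log2 fold change was 0.16 ± 0.05 (adjusted p = 0.00792), called in all 17 alternatives. The mismatch sensor genes Msh6 and Msh3 had log2 fold changes of -0.10 ± 0.04 (adjusted p = 0.0856, in a range from 0.0238 to 0.425) and -0.04 ± 0.06 (adjusted p = 0.636). Pms2, the endonuclease gene, had -0.01 ± 0.07 (adjusted p = 0.926).

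Base excision and single-strand break repair genes went both ways, with 2 rises and 3 falls among 7. Parp1, which encodes the polymerase that marks nicked DNA with poly(ADP-ribose), measured 427, 426 and 417 CPM with RGFP966 and 388, 372 and 399 CPM with vehicle. The groups did not overlap, and the log2 fold change was 0.13 ± 0.04 (adjusted p = 0.00569), called in all 17 alternatives. Parp2, its close relative, measured 61.3, 64.1 and 64.3 CPM with RGFP966 and 57.7, 56.0 and 56.9 CPM with vehicle. The log2 fold change was 0.15 ± 0.05 (adjusted p = 0.0345). That call held in 7 of 17 alternatives, in a range from 0.0141 to 0.113. It was lost without RGFP966 library 2 or 3 (0.0962 and 0.102) and without vehicle library 1, 2 or 3 (0.0503, 0.0850 and 0.0629). It was also lost with no filter on low counts (0.0665), in the DESeq2 Wald test (0.113), with GC and length offsets, alone (0.0525) or with a replicate block (0.0575), and after thinning (0.0601).

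Ung, Apex1 and Xrcc1 fell. Ung encodes uracil-DNA glycosylase, which removes uracil from DNA. It measured 40.9, 40.9 and 39.2 CPM with RGFP966 and 48.1, 51.1 and 47.2 CPM with vehicle. The groups stood well apart, and the log2 fold change was -0.28 ± 0.06 (adjusted p = 0.000715). Apex1 encodes the endonuclease that cuts the abasic site left by a glycosylase. It measured 13.1, 12.3 and 10.7 CPM with RGFP966 and 15.7, 18.0 and 16.2 CPM with vehicle, a log2 fold change of -0.47 ± 0.11 (adjusted p = 0.000814), the largest fall of the 45 genes. Both calls held in all 17 alternatives.

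Apex1 has a limit of its own. Of its exons 61.7% are overlapped by Pip4p1 on the opposite strand, and the labels name a library kit that does not mark strand. Pip4p1 was also lower, at 34.7 ± 1.96 CPM with RGFP966 and 40.5 ± 4.41 CPM with vehicle (log2 fold change -0.23 ± 0.07, adjusted p = 0.0173, in a range up to 0.142), and reads of the shared stretch cannot be told apart. Xrcc1, the scaffold gene of single-strand break repair, measured 77.3, 76.1 and 68.6 CPM with RGFP966 and 84.6, 85.4 and 77.1 CPM with vehicle. Its groups touched, with RGFP966 library 1 at the level of vehicle library 3. Its log2 fold change was -0.16 ± 0.05 (adjusted p = 0.0245), and the call was lost without RGFP966 library 3 (0.280) and without vehicle library 1 or 2 (0.104 and 0.0977). Upper-quartile factors (0.0637), the DESeq2 Wald test (0.110) and GC and length offsets, alone (0.0854) or with a replicate block (0.0615), ended it too, and over all alternatives the adjusted p ran between 0.0112 and 0.280. Lig3, the gene of the ligase that XRCC1 carries, had -0.08 ± 0.06 (adjusted p = 0.355; 25.1% of its exons overlapped, all of it by Rffl), and Ogg1, the glycosylase gene for 8-oxoguanine, had 0.04 ± 0.10 (adjusted p = 0.834).

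Nucleotide excision repair genes held 0 calls among 6 tested by edgeR's quasi-likelihood test, with 1 unadjusted p under 0.05, and 0 in the DESeq2 Wald test. Of 20 other nucleotide excision genes tested, 35% were called by edgeR, against 23.3% of all genes. Ddb1, a subunit of the UV damage sensor and of CUL4 ubiquitin ligases, measured 626, 622 and 613 CPM with RGFP966 and 600.1, 574 and 621 CPM with vehicle (log2 fold change 0.05 ± 0.04, adjusted p = 0.328). Ddb2, its damage-binding partner, measured 18.2, 20.1 and 24.7 CPM with RGFP966 and 21.1, 20.9 and 20.6 CPM with vehicle. Its RGFP966 libraries lay on both sides of the vehicle libraries. Xpc, the gene of the lesion sensor, had a log2 fold change of 0.05 ± 0.08. The TFIIH helicase genes Ercc2 and Ercc3 had 0.05 ± 0.10 and -0.02 ± 0.05, with 42.7% of the Ercc2 exons overlapped by other genes. Ercc1, which encodes a subunit of the nuclease that cuts beside the lesion, measured 19.8, 18.9 and 18.2 CPM with RGFP966 and 21.2, 21.1 and 22.3 CPM with vehicle. Its groups did not overlap, and its change of -0.18 ± 0.09 was not called (adjusted p = 0.136).

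**Figure D3:**
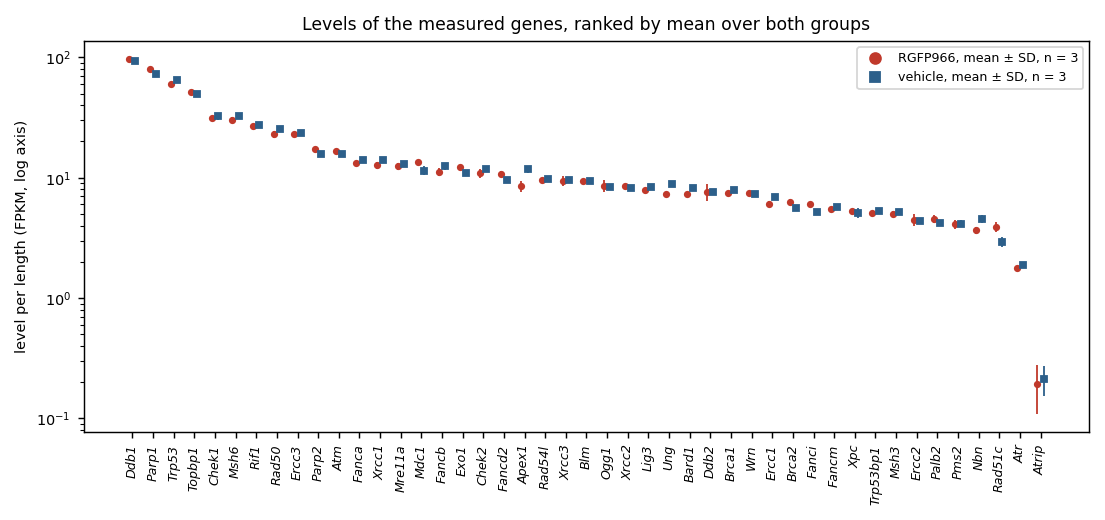
Level per length of the 45 genes, in FPKM on a log axis, as mean ± SD over 3 libraries for RGFP966 (circles) and vehicle (squares), ranked by the mean over both groups. The order runs from Ddb1, above 90 FPKM, to Atrip, at about 0.2 FPKM, and the 2 groups lie close together at most genes. Apex1, the largest fall, had 8.45 ± 0.873 FPKM with RGFP966 and 11.7 ± 0.841 FPKM with vehicle. Rad51c, the largest rise, had 3.92 ± 0.346 FPKM with RGFP966 and 2.94 ± 0.294 FPKM with vehicle.

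Levels of different genes were compared per length, as FPKM, which divides CPM by exon length in kilobases, with the exons of all transcripts of a gene joined. Stretches shared with other genes count in that length, 61.7% of it in Apex1 and 42.7% in Ercc2. Their effect on the levels was not tested. Ddb1 stood highest, at 96.8 ± 1.04 FPKM with RGFP966 and 93.3 ± 3.65 FPKM with vehicle (SD, n = 3 each). Parp1 followed at 79.98 ± 0.998 and 73.0 ± 2.63 FPKM, Trp53 at 60.4 ± 1.59 and 64.2 ± 1.98 FPKM, and Topbp1 at 51.8 ± 0.430 and 49.8 ± 0.365 FPKM, in each case with RGFP966 and with vehicle. The spreads of these 4 genes did not meet. Chek1 and Msh6 came next and could not be ranked against each other, at 31.5 ± 0.859 and 30.4 ± 1.47 FPKM with RGFP966 and 32.3 ± 2.17 and 32.7 ± 1.52 FPKM with vehicle. Among the kinase genes, Atm stood at 16.7 ± 0.217 FPKM with RGFP966 and 15.7 ± 0.756 FPKM with vehicle. Atr stood at 1.76 ± 0.0839 FPKM with RGFP966 and 1.89 ± 0.0784 FPKM with vehicle. That gap depends on the length used, as the joined exons measure 23629 bases for Atr and 10338 for Atm. In CPM, Atm averaged 172 with RGFP966 and 162 with vehicle, and Atr 41.7 and 44.7. Atrip was lowest, at 0.193 ± 0.0849 FPKM with RGFP966 and 0.213 ± 0.0608 FPKM with vehicle.

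The ranges of level, length and GC content overlapped between the genes that rose and the genes that fell. The mean vehicle level of the 8 that rose ran from 12.9 to 386 CPM, and that of the 4 that fell from 16.7 to 136 CPM. Exonic length ran from 3628 to 13643 bases in the genes that rose (median 6597.5). It ran from 1422 to 5831 in those that fell (median 5421.5), and from 2187 to 23629 in the 33 not called (median 6409). GC content of the longest transcript ran from 42.4% to 52.7% in the genes that rose (median 47.0%). It ran from 45.2% to 59.3% in those that fell (median 49.8%), and from 39.3% to 59.1% in those not called (median 47.0%). Exons were overlapped by other genes over more than 10% of their length in 1 gene that rose, Fanci, in 1 that fell, Apex1, and in 8 not called.

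The 12 called genes lie on 7 chromosomes in the GRCm38 annotation of GENCODE M21. Parp1 (ENSMUSG00000026496, chr1:180568924-180601254, plus strand) and Exo1 (ENSMUSG00000039748, chr1:175880581-175913489, plus strand) share chromosome 1. Brca2 (ENSMUSG00000041147, chr5:150522630-150570329, plus strand) and Ung (ENSMUSG00000029591, chr5:114130386-114139323, plus strand) share chromosome 5. Fanci (ENSMUSG00000039187, chr7:79391929-79450264, plus strand) and Xrcc1 (ENSMUSG00000051768, chr7:24546289-24573440, plus strand) share chromosome 7. Rad51c (ENSMUSG00000007646, chr11:87376645-87404954, minus strand) and Rad50 (ENSMUSG00000020380, chr11:53649519-53707319, minus strand) share chromosome 11. Apex1 (ENSMUSG00000035960, chr14:50924968-50927139, plus strand) and Parp2 (ENSMUSG00000036023, chr14:50807841-50821301, plus strand) lie near each other on chromosome 14, and Apex1 fell while Parp2 rose. Fancd2 (ENSMUSG00000034023) lies at chr6:113531682-113597017, plus strand, and Mdc1 (ENSMUSG00000061607) at chr17:35841515-35859670, plus strand.

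A set of 102 further repair and checkpoint genes was listed by route, without covering the whole machinery. Of 101 tested, 11 were higher and 9 lower with RGFP966, or 19.8%, against 23.3% of all genes tested. Their median log2 fold change was 0.03. Other homologous recombination genes held 0 rises and 2 falls among 24, by edgeR: Swi5 (-0.15, adjusted p = 0.00620), a recombination mediator, and Rbbp8 (-0.16, adjusted p = 0.0229), the gene of the resection factor CtIP. Other mismatch repair genes held 1 rise among 4, Pms1 (0.28, adjusted p = 0.0236), and other base excision genes 1 fall among 16, Tdp1 (-0.19, adjusted p = 0.00878), which clears trapped topoisomerase I.

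Among 14 other Fanconi genes 1 rose and 1 fell. Usp1, the deubiquitinase gene that acts on FANCD2 and FANCI, fell to 246 ± 3.55 CPM with RGFP966, against 278 ± 2.83 CPM with vehicle (log2 fold change -0.17, adjusted p = 0.000383). The nuclease gene Fan1 rose by 0.32 on the log2 scale (adjusted p = 0.0319). Other nucleotide excision genes held 4 rises and 3 falls among 20. Rad23b, whose product stabilises XPC, rose by 0.17 (adjusted p = 0.000586), as did the TFIIH subunit genes Gtf2h3 by 0.18 (adjusted p = 0.00698) and Gtf2h1 by 0.14 (adjusted p = 0.0120). The cullin genes Cul4b and Cul4a fell by 0.20 (adjusted p = 0.00247) and 0.13 (adjusted p = 0.0183), and the centrin gene Cetn2 by 0.16 (adjusted p = 0.0190).

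Among 23 other checkpoint genes 5 rose and 2 fell. Wee1, the kinase gene that holds CDK1 inactive, fell to 58.0 ± 2.13 CPM with RGFP966, against 71.4 ± 1.51 CPM with vehicle (log2 fold change -0.30, adjusted p = 2.67e-05). Timeless, a fork protection gene, fell by 0.18 (adjusted p = 0.00334). Tti1, which helps mature ATM and ATR, rose by 0.20 (adjusted p = 0.00251), the crosslink nuclease gene Dclre1a by 0.30 (adjusted p = 0.00473), and Rad1, part of the 9-1-1 clamp, by 0.25 (adjusted p = 0.00560). Of the genes named from these lists and the p53 targets, those whose call was lost in at least 1 alternative were Swi5, Rbbp8, Pms1, Tdp1, Fan1, Gtf2h1, Cul4b, Cul4a, Cetn2 and Rrm2b.

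**Figure D4:**
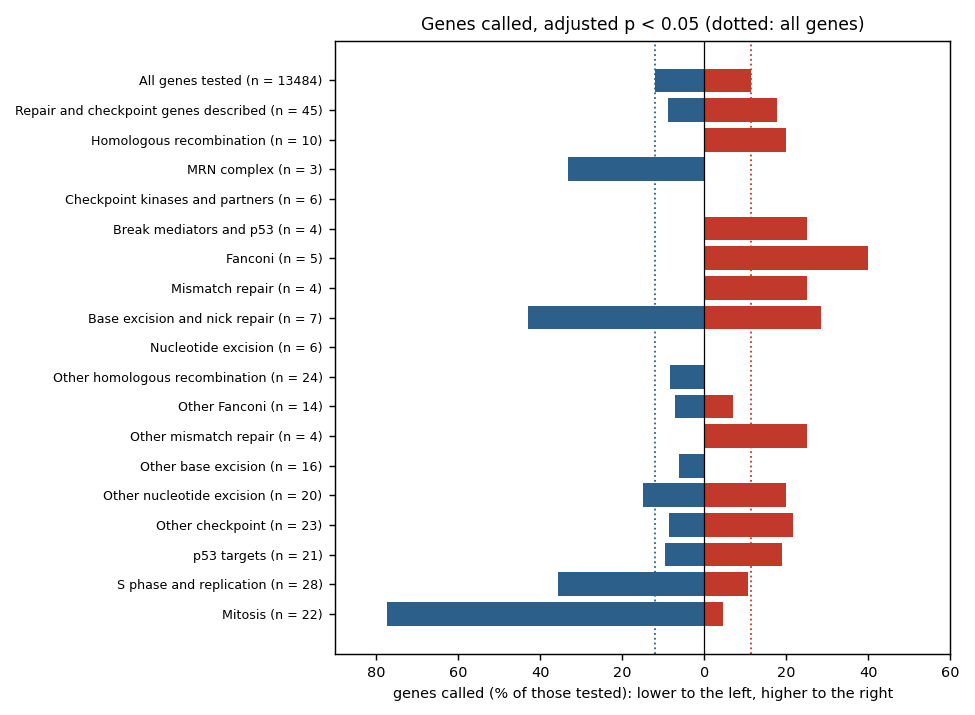
Percentage of tested genes called higher (right) and lower (left) with RGFP966 in each list, with dotted lines at 11.4% and 11.9% for all genes. Repair lists fall on both sides of the lines, and the mitosis list stands out with 17 of 22 genes lower.

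**Figure D5:**
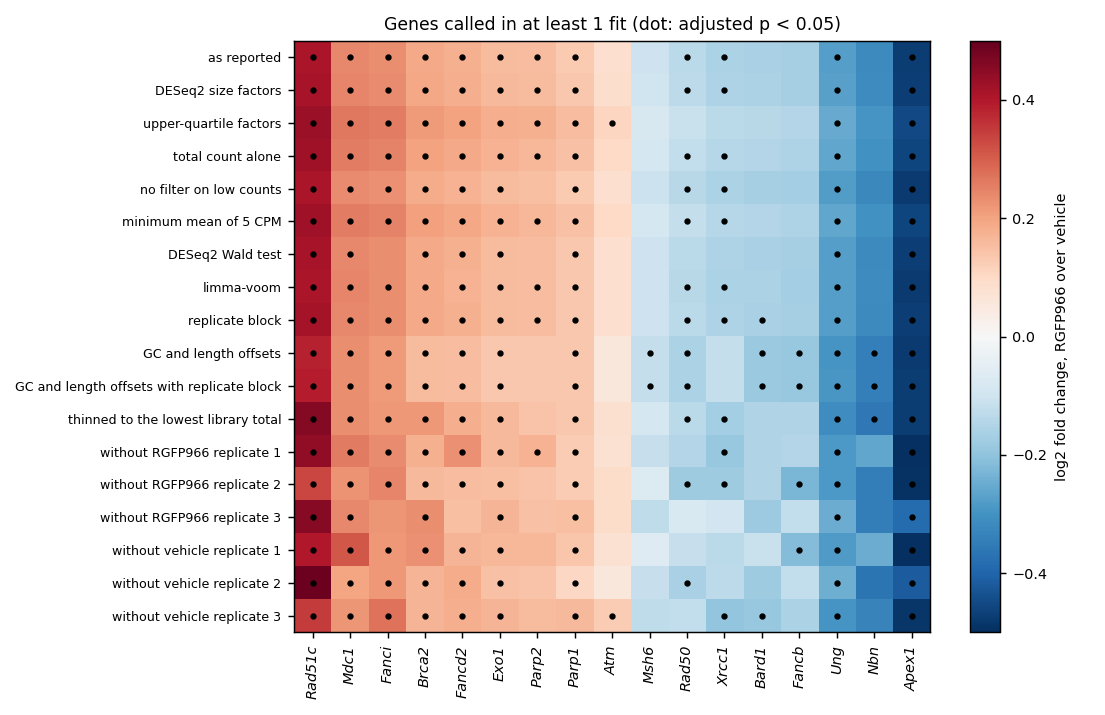
Log2 fold change of RGFP966 over vehicle (colour) for the 17 genes called in at least 1 fit, across the reported fit and 17 alternatives, with a dot where the adjusted p was under 0.05. Rad51c, Mdc1, Brca2, Exo1, Parp1, Ung and Apex1 carry a dot in every row, while Bard1, Nbn, Fancb, Msh6 and Atm carry dots in 2 to 4 alternatives only.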

How the data were processed

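RNA of 6 libraries of EL4 cells was sequenced, 3 per group. The deposited table holds raw read counts per Ensembl gene ID. HTSeq 0.6.0, HISAT2 2.1.0, Bowtie2 2.2.3, TopHat2 and CASAVA are listed per the submitters' processing notes, with the build mm10 and without roles. For annotation release, strand setting and duplicates: not given in the sources used here. Symbols covered 51633 of 51912 IDs.

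The counts were fitted with edgeR 4.0.16 (R 4.3.3) in 1 model of all 6 libraries with no covariate, filterByExpr defaults, TMM factors, the robust quasi-likelihood F test and Benjamini-Hochberg adjustment over 13484 genes. The steps were tested on simulated counts with fewer genes changed than were called here, which gives no error rate for these data. CPM relate counts to TMM-scaled totals, and FPKM divide these by joined exon length from GENCODE M21. The SE was derived from the log2 fold change and its F statistic, and approximate intervals use the normal distribution. Depth and the spread of 3 libraries limit the precision.

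Alternatives were DESeq2 1.42.0 size factors and Wald test, upper-quartile factors, total count, 2 other filters, limma-voom (limma 3.58.1), GC and length offsets (mgcv 1.9.3), thinning, a replicate block and leaving out each library. The genes and lists were chosen with earlier results of these data known. All listed genes were to be named, and up to 3 rises and 3 falls of smallest adjusted p from each further list, with Cdkn1a and Mdm2. A further gene of the rule is not reported here.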

Additional observations from a re-analysis of the deposited data

How the results depend on the processing

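The 7 genes called in all 17 alternatives were Parp1, Apex1, Mdc1, Exo1, Ung, Brca2 and Rad51c. The count of these genes that fell, 4 as reported, was 2 with upper-quartile factors and in the DESeq2 Wald test, and 7 with GC and length offsets, alone or with a replicate block. Over all genes, the number called higher was 1011 in the Wald test, against 1543 as reported. That is the other direction, so it gives no share for the falls. Leaving out 1 library gave 5 to 8 rises and 2 to 5 falls, with the lowest of both without RGFP966 library 3. Counts over all genes in those fits are not given here. Whether the replicate numbers pair the libraries is not in the labels. Deviations of same-numbered libraries had correlations of -0.02, 0.01 and 0.01 across 13484 genes. With a replicate block 8 of the genes rose and 5 fell, against 1667 rises and 1764 falls among all genes.

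The log2 fold change of 12 genes, none of them called, changed sign in at least 1 alternative, and the cause was not tested. Upper-quartile factors gave 0.0037 for Xrcc3, 0.0062 for Rif1, 0.010 for Pms2 and 0.0027 for Ercc3. GC and length offsets gave 0.013 for Xrcc3, -0.019 for Blm, -0.00032 for Wrn and -0.0064 for Ddb2, and with the block 0.012 for Xrcc3, -0.020 for Blm and -0.015 for Ddb2. Pms2 had 0.0015 with total count and 0.0016 with the 5 CPM minimum, and thinning gave -0.019 for Ercc2 and 0.0013 for Ercc3. With 1 library left out the values ran between -0.077 and 0.046 for Xrcc3, -0.014 and 0.039 for Blm, -0.45 and 0.15 for Atrip, -0.081 and 0.012 for Chek1, -0.046 and 0.020 for Rif1, -0.065 and 0.059 for Pms2, -0.052 and 0.099 for Ogg1, -0.022 and 0.13 for Xpc, -0.0012 and 0.14 for Ercc2, -0.062 and 0.017 for Ercc3, and -0.12 and 0.11 for Ddb2.

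With 3 libraries a group, the smallest rise called among these genes was 9.63% and the smallest fall -8.97%, and for Atrip the low counts set the limit.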

Other observations

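The following partners were picked after their values were seen, and no difference between them was tested. Tipin and Timeless encode the subunits of the fork protection complex. Tipin averaged 162 ± 7.20 CPM with RGFP966 and 146 ± 6.60 CPM with vehicle (SD, n = 3 each), a rise of 0.14 on the log2 scale (edgeR adjusted p = 0.0118, in a range from 0.00323 to 0.1104 over the alternatives). Timeless averaged 87.0 ± 1.78 CPM with RGFP966 and 98.6 ± 2.82 CPM with vehicle, a log2 fold change of -0.18 (edgeR adjusted p = 0.00334, called in all 17 alternatives). DDB1 is the adaptor of the CUL4 ubiquitin ligases, and while Ddb1 was not called, Cul4a averaged 161 ± 1.45 CPM with RGFP966 and 176 ± 8.13 CPM with vehicle, and Cul4b 89.6 ± 5.20 CPM with RGFP966 and 103 ± 6.99 CPM with vehicle.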
